A study of Camponotus floridanus with 64 samples.

Results

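Brains of minor workers of the carpenter ant Camponotus floridanus were compared at 2 ages. The older group holds 5 scouts aged 78 days that were fed the solvent DMSO without inhibitor, and the younger group holds 5 minors on day 1 of adult life. These 10 libraries were chosen by caste, age and treatment as labelled, out of 64 samples in the series and 37 RNA libraries. Each library is 1 central brain, so n = 5 counts brains in both groups.

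The scouts were taken from their colony at 25 to 30 days of age and kept in groups of 15. They drank 20% sugar water with 0.5% DMSO for 45 days before freezing. Scouts 17, 18 and 19 came from colony SB2, scout 20 from SB6 and scout 21 from SB7. The 5 day 1 minors all came from SB2 and are labelled callow, the term for workers that have just left the pupa. Scout libraries used 15% of a brain. The labels' sample descriptions name LinDA, a linear amplification of cDNA, for the scouts and not for the day 1 minors, while the protocol text is shared by both. The groups also stand in tables that were normalized apart. Age, scouting, isolation, DMSO feeding, amplification, table and, for scouts 20 and 21, colony therefore cannot be told apart, and each difference below is one between these libraries.

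Callow ants stay in the nest and take up brood care first, and workers that search for food outside are older. In carpenter ants the mushroom bodies, the brain centres for learning and the joining of senses, go on growing in adult life. Both age and foraging experience are known to bear on that growth. In these tables most genes carry only a number, such as Cflo_14940, and no identifier matched the reference table, so roles are given only for identifiers whose name states one.

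Levels could not be compared between the tables, so each identifier was given its rank within each library. A deposited library lists 18130 identifiers. Scouts 17 to 21 detected 8882, 8931, 7839, 7825 and 7938 of them, and day 1 minors 1 to 5 detected 10664, 10462, 10829, 11259 and 11107. The value of 11259 is a lower bound, because the run of tied low values has no visible end in that library. Every scout lay below every day 1 minor, with means of 8283 ± 571 in scouts and 10864 ± 323 in day 1 minors (SD, n = 5 each, two-sided exact permutation test, p = 0.00794, the smallest this design allows). The direction depends on how detection is defined: counting deposited values above 1, which the separate normalization of the tables sets, scouts had 4707 ± 129 and day 1 minors 3718 ± 23.7 (SD, n = 5 each, exact permutation test, p = 0.00794). By the first definition, the 3 SB2 scouts alone averaged 8551 ± 617, which also lay below all day 1 minors (exact permutation test, p = 0.0357, the smallest that 3 against 5 allows). Read depth cannot be given, since no table holds counts.

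To keep that difference out of the ranks, the 7825 highest identifiers of each of the 10 libraries were ranked. All others were tied below them and called unranked. A percentile of 100 is the top of a library, and unranked identifiers sit at 28.4. In libraries of other groups that detected fewer than 7825, all detected identifiers were ranked. Unranked means undetected there, at a percentile above 28.4. An identifier at the top of all libraries of one group and unranked in the other thus differs by at most 71.6 percentile points. For numbered identifiers, positions from the top are given among the 16928 numbers that all 3 tables share, of which 7658 are ranked, so that position 1 is the highest. A rank is relative: an identifier can lose places because others gained them.

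The rank order of the brain transcriptome differed between the scouts and the day 1 minors more than it differed within either group. Over the numbered identifiers, Spearman's rho between a scout and a day 1 minor averaged 0.50 and ran from 0.49 to 0.52 over 25 pairs. Between scouts it averaged 0.65 (range 0.64 to 0.67), and between day 1 minors it averaged 0.88 (range 0.87 to 0.90). The 3 SB2 scouts were as far from the day 1 minors of their own colony as the 2 scouts of other colonies were, with mean rho of 0.50 in both cases. Day 1 majors, the larger worker caste, came from the same colony and table as the day 1 minors. Majors 1 to 3 had a mean rho of 0.54 with the day 1 minors (range 0.43 to 0.66), and majors 4 and 5 had 0.86. The lowest of these pairs thus lay below every pair of a scout and a day 1 minor, though both brains were of day 1. These correlations are across identifiers, which are not independent, and libraries of one group share a table.

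**Figure D1:**
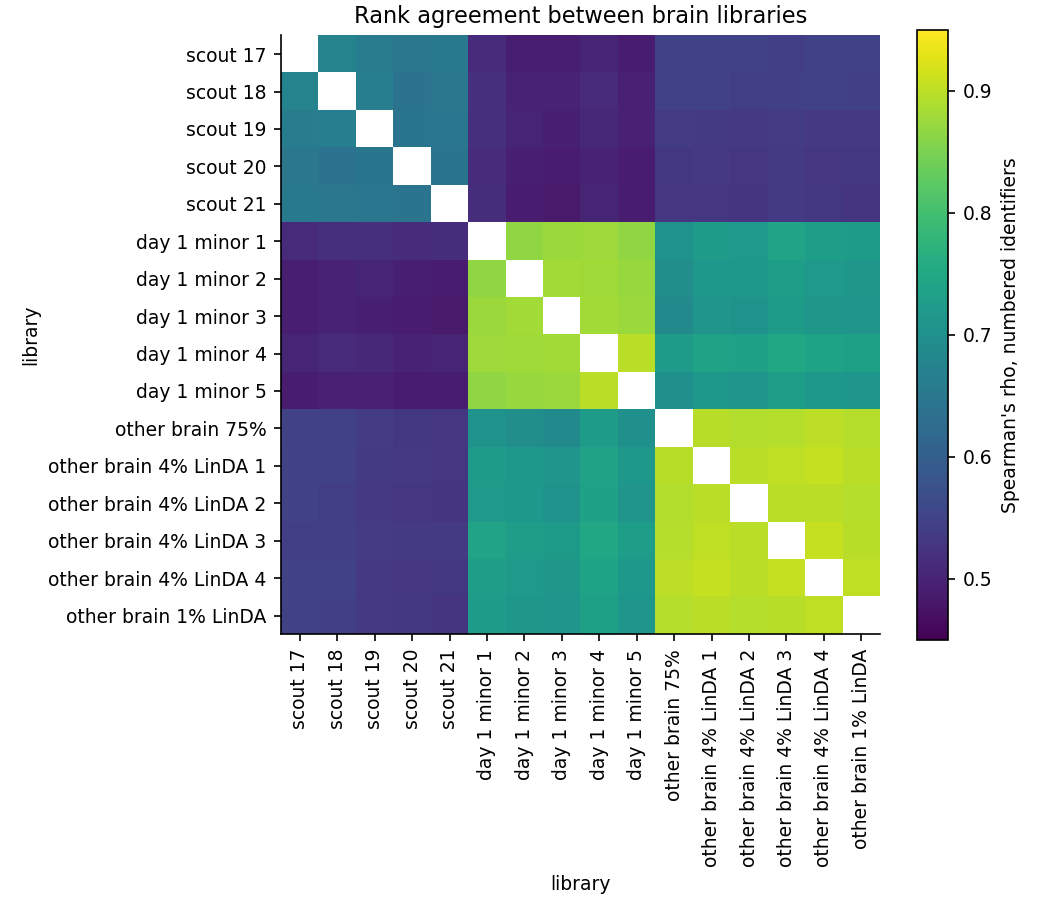
Spearman's rho of capped within-library ranks over 16928 numbered identifiers, for the 5 scouts, the 5 day 1 minors and 6 libraries made from another day 1 minor brain (diagonal blank). The block of scouts against day 1 minors is the darkest, between 0.49 and 0.52.

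A separate day 1 minor brain bears on the amplification, because it was sequenced in portions with and without LinDA. Its 75% portion had no LinDA, and 4 portions of 4% and 1 portion of 1% were amplified. The 4% portions had a rho of 0.89 to 0.90 with the 75% portion and of 0.90 to 0.91 with each other. The 5 amplified portions had a mean rho of 0.54 with the scouts and of 0.72 with the day 1 minors, and the 75% portion had 0.54 with the scouts and 0.70 with the day 1 minors. In this brain, the ranks of amplified and unamplified portions were thus nearly as close as those of amplified portions to each other. It is 1 brain in a table of its own, and the part of amplification in the scout libraries was not tested.

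Of 7870 identifiers with a mean percentile of at least 50, 1717 ranked higher in scouts than in day 1 minors, which is 21.8% (limma with Benjamini-Hochberg adjustment, adjusted p under 0.05). Another 2419, or 30.7%, ranked lower in scouts. Many of the called differences were small in rank, so a stricter class is used below, called clear. A clear difference passed the same test, was at least 25 percentile points and left no overlap between the 5 scouts and the 5 day 1 minors, a rule set after the data were seen. By that rule 736 identifiers were clearly higher in scouts (9.35% of those tested) and 975 were clearly lower (12.4%). Of these, 302 of the clearly higher were unranked in every day 1 minor and 224 of the clearly lower in every scout. Such identifiers reach the filter only where they are high in the other group, and had to differ. The median over all tested identifiers was -5.15 percentile points. It describes those that passed the filter, since the percentiles of each library have the same sum and cannot differ on average over all identifiers. Over all identifiers, 6177 were ranked in all 5 day 1 minors and 4372 in all 5 scouts.

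**Figure D2:**
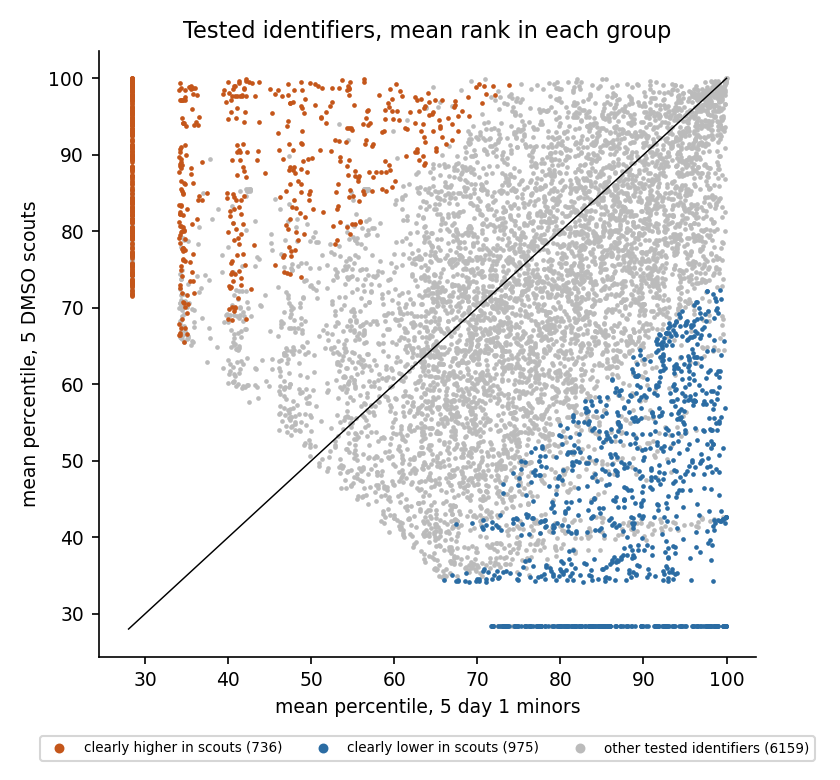
Mean within-library percentile of each of 7870 tested identifiers in the 5 scouts (y axis) against the 5 day 1 minors (x axis), with the line of equality. The 736 clearly higher identifiers lie above the line and the 975 clearly lower ones below it, and the bands at the left and bottom edges hold identifiers unranked in some or all libraries of 1 group.

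Ranks varied more between scout libraries than between day 1 libraries. Over 3009 numbered identifiers ranked in all of these 10 libraries and the 6 portions of the other brain, the median SD was 4.62 percentile points in scouts and 2.12 in day 1 minors. The SB2 scouts had a median SD of 3.80, and the 4% portions of 1 brain had 1.28. The SD was larger in scouts for 2293 of the 3009, or 76.2%. The groups also differ in colony, amplification and number detected, so spread between individuals cannot be told from technical spread. In ranks, a wider spread moves the mean of a high identifier down, and its part in the larger number of identifiers lower in scouts was not tested. Among the 4475 identifiers detected in all 10 libraries and ranked among themselves, a choice made after seeing the data, 1339 were higher in scouts and 1428 were lower, and the median difference was -0.53.

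A few transcripts headed the list at both ages. Cflo_13243 was at position 1 in all 5 scouts and all 5 day 1 minors. Cflo_11535 stood at positions 4, 4, 4, 3 and 4 in scouts 17 to 21 and at 2, 2, 3, 2 and 2 in day 1 minors 1 to 5. Cflo_14737 stood at 20, 13, 12, 11 and 12 in scouts and at 3, 3, 2, 3 and 3 in day 1 minors. These are the 3 identifiers shared by the 20 with the best median position in each group, which is 15% of either list. They were named after their values were seen. Being picked for high positions in both groups leaves them little room to differ in percentile, so no p is given.

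Below these, the most abundant transcripts of scouts and of day 1 minors were largely different ones. Of the 100 identifiers with the best median position in scouts, 9 were among the best 100 in day 1 minors. The best 100 of the amplified portions of the other day 1 brain held 20 of the best 100 in scouts and 38 of the best 100 in day 1 minors. Of the scouts' best 100, 32 were unranked in all 5 day 1 minors. Of the day 1 minors' best 100, 7 were unranked in all 5 scouts. The rest of these day 1 transcripts were ranked in at least 1 scout. Cflo_03949 is an example, named after its values were seen: it stood between 478 and 611 in the 5 scouts and at 6, 12, 6, 7 and 5 in day 1 minors 1 to 5. Its difference was -3.25 ± 0.19 percentile points (SE), with no overlap between the groups. It was picked from the day 1 list with these values known, so no p is given.

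Over all identifiers, 402 were ranked in every scout and in no day 1 minor, and 282 were ranked in no scout and in every day 1 minor. Counted by detection in place of rank, 111 were detected in every scout and no day 1 minor, and 555 in no scout and every day 1 minor. The larger of the 2 counts therefore changes sides with the measure, and scouts detected fewer identifiers in all.

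The identifiers named next were chosen by a rule that asked for more than the test. They did not overlap between groups, differed the same way in the SB2 scouts alone, and lay on the day 1 side of the scouts in all 5 amplified portions of the other day 1 brain. Of the 1717 identifiers higher in scouts, 1369 did not overlap and 908 met all conditions. Of the 2419 lower in scouts, 1875 did not overlap and 991 met all conditions. The 12 with the largest difference in each direction are described. All 24 were unranked in every library of the lower group, so their differences are close to the largest the ranks allow and give no order of size. They passed the filter through the group where they are high and were picked for the size of the difference, so their values are a description and no p is given.

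The 12 identifiers higher in scouts differed by 71.1 to 71.5 percentile points, and 10 of them were undetected in all 5 day 1 minors. Cflo_14940 stood at position 2 in all 5 scouts. Cflo_13241 stood at 3, 3, 3, 4 and 3 in scouts 17 to 21, and Cflo_13242 at 7, 8, 7, 6 and 7. None of these 3 was detected in any day 1 minor or in any portion of the other day 1 brain. Cflo_13241 and Cflo_13242 carry numbers next to that of Cflo_13243, the top identifier of every library, and the files do not say whether they lie side by side or share sequence. Reads of near-identical copies could have been split between such identifiers, so their separate ranks are uncertain.

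Day 1 majors 1 and 2, but not major 3, also held these 3 transcripts. The day 1 majors, the larger worker caste, stand in the same table as the day 1 minors, and majors 1 to 3 detected 5459, 6298 and 6528 identifiers, fewer than any scout. Cflo_14940 stood at position 2, Cflo_13241 at position 3 and Cflo_13242 at position 4 in both major 1 and major 2, and all 3 were unranked in majors 3, 4 and 5. The same identifiers were thus near the top of 2 day 1 libraries from the table in which every minor lacked them. The part of the number detected in their difference between scouts and day 1 minors was not tested.

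Other scout identifiers were absent from those majors as well. Cflo_17049 stood at 5, 5, 8, 5 and 5 in scouts 17 to 21 and was undetected in all 5 day 1 minors, all 5 day 1 majors and all 6 portions of the other brain. Cflo_16554 stood at 24, 19, 13, 25 and 16, Cflo_16849 at 21, 15, 44, 71 and 37, Cflo_15760 at 34, 34, 65, 8 and 14, and Cflo_14566 at 28, 29, 26, 55 and 36. These 4 were likewise undetected in every day 1 library. Their scout positions all lay within the first 71, while no day 1 brain in either table showed them.

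For the other 4 identifiers higher in scouts, some day 1 libraries held the transcript. Cflo_14438 stood at 8, 10, 5, 10 and 8 in scouts and was undetected in day 1 minors, but reached 541 in day 1 major 5 and 448 and 469 in 2 amplified portions of the other brain. Cflo_16717 stood at 12, 14, 14, 14 and 9 in scouts and at 75 in day 1 major 1. Cflo_14288 stood at 16, 23, 17, 20 and 21 in scouts and was detected, though unranked, in 3 of 5 day 1 minors. Cflo_01875 stood at 9, 12, 9, 19 and 44 in scouts and was also detected but unranked in 3 day 1 minors. In the other day 1 brain Cflo_01875 was at 148 without LinDA and between 64 and 589 with it, so that brain lay between the scouts and the other day 1 minors.

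**Figure D3:**
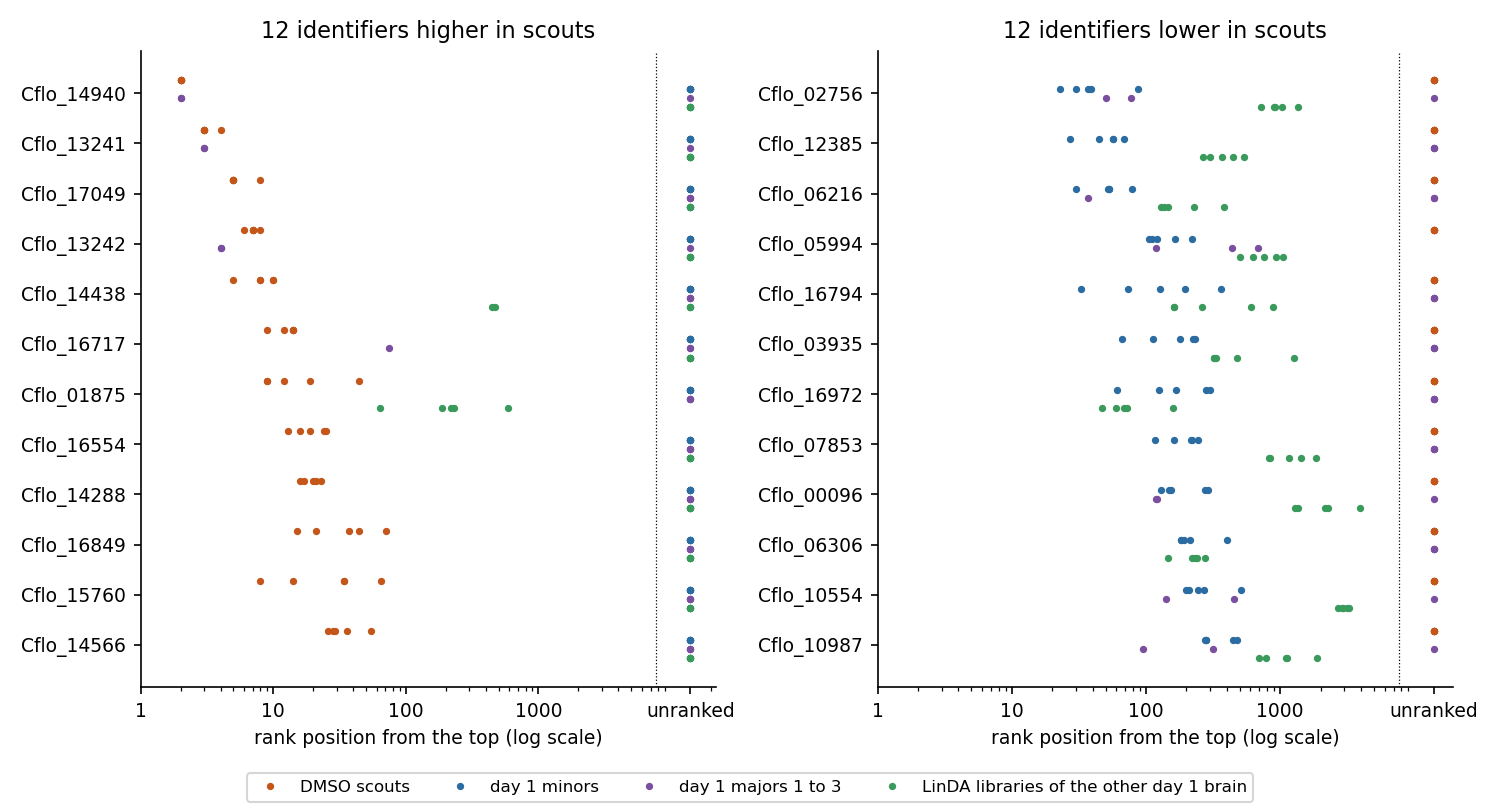
Rank position from the top on a log scale (dotted line, last ranked position, 7658; unranked libraries to its right) of the 12 identifiers with the largest difference in each direction, 1 point per library. In the left panel the 5 scouts lie within the first 71 positions and the day 1 minors are unranked, and in the right panel the 5 day 1 minors lie within the first 513 and the scouts are unranked.

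The 12 identifiers lower in scouts had differences of -71.1 to -69.2 percentile points and were undetected in all 5 scouts. Cflo_02756 stood at 37, 87, 30, 39 and 23 in day 1 minors 1 to 5. Cflo_12385 stood at 69, 27, 45, 57 and 57, and Cflo_06216 at 52, 30, 79, 53 and 53. Each of the 3 was thus below detection in every scout and among the 87 most abundant numbered transcripts of every young brain.

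The same transcripts were found in the second day 1 brain. Its amplified portions held Cflo_02756 between 716 and 1357, Cflo_12385 between 264 and 541 and Cflo_06216 between 130 and 379. Without LinDA they were at 1344, 352 and 103. All stood lower there than in each of the 5 day 1 minors, and all were ranked in portions as small as 1% of a brain. The remaining 9 identifiers were Cflo_05994, Cflo_16794, Cflo_03935, Cflo_16972, Cflo_07853, Cflo_00096, Cflo_06306, Cflo_10554 and Cflo_10987. Their positions in day 1 minors ran from 33 for Cflo_16794 to 513 for Cflo_10554, and each was detected in all 6 portions of the other brain.

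In the day 1 majors, majors 4 and 5 held 11 of the 12 ranked in both libraries. The exception was Cflo_16794, which was unranked in major 4 and at 509 in major 5. In majors 1 to 3, which detected the fewest identifiers, 1 of the 12 (Cflo_05994, at 438, 688 and 118) was ranked in all 3, and 6 were unranked in all 3. Some of these transcripts were thus also undetected in majors 1 to 3, which are day 1 libraries of the other caste. The part of the number detected in their absence from scouts was not tested.

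The clear calls as a whole were set beside the same libraries. In majors 4 and 5 the mean percentile lay nearer to the scouts than to the day 1 minors for 36 of the 736 clearly higher identifiers (4.89%) and for 33 of the 975 clearly lower ones (3.38%). In majors 1 to 3 this was so for 276 of 736 (37.5%) and for 533 of 975 (54.7%). A majority of the identifiers clearly lower in scouts were therefore also nearer to the scouts in the day 1 majors that detected few identifiers. The amplified portions of the other day 1 brain lay nearer to the scouts for 237 of 718 numbered identifiers clearly higher (33.0%) and for 336 of 952 clearly lower (35.3%). Its 75% portion without LinDA gave 284 (39.6%) and 387 (40.7%). That is 1 library set beside a mean of 5 amplified portions, and the part of amplification was not tested. For the other identifiers this brain lay nearer to the day 1 minors.

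Some large differences failed the check against the second day 1 brain. Cflo_02812 stood at 26, 33, 69, 48 and 47 in scouts 17 to 21 and was detected but unranked in all 5 day 1 minors, a difference of 71.0 percentile points. It stood at 3 in the 75% portion of the other day 1 brain and at 4, 5, 4, 4 and 8 in its amplified portions. That day 1 brain thus held it at or above the scout positions, with and without LinDA. Cflo_06436 showed the same pattern, at 184, 133, 1114, 459 and 1152 in scouts and at 182 without and between 140 and 396 with LinDA in the other brain, and it was unranked in the 5 day 1 minors. Cflo_16181 stood at 239, 824, 1630, 858 and 143 in scouts and was ranked in 2 of the 5 amplified portions. Both were ranked in all 5 scouts and none of the day 1 minors (differences of 67.8 and 67.0 percentile points).

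In the opposite direction, Cflo_14886 was undetected in all scouts and stood at 239, 20, 74, 410 and 82 in day 1 minors 1 to 5, and all portions of the other day 1 brain lacked it (difference -70.4 percentile points). Cflo_09122 and Cflo_00620 were also undetected in scouts. In day 1 minors Cflo_09122 stood at 110, 34, 269, 69 and 294, and Cflo_00620 at 92, 329, 71, 463 and 109. In the other brain Cflo_09122 was unranked in the 75% portion and in 1 amplified portion, and Cflo_00620 was unranked in the 1% portion alone. Libraries of young brains of the same caste and colony therefore also differed by the presence of single abundant transcripts.

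The share of tested identifiers clearly higher in scouts differed with the number in the name, a feature the ranks did not use. Numbers run from 1 to 17062. Of the identifiers in each 2000 numbers below 12000, 53.3% to 58.6% were tested. For numbers 12000 to 13999, 14000 to 15999 and 16000 to 17062 it was 34.8%, 18.8% and 9.41%. The shares in these classes thus rest on the fewer identifiers that passed the filter. In each 2000 numbers below 12000, between 5.06% and 8.87% of tested identifiers were clearly higher in scouts. The share was 17.9% for numbers 12000 to 13999 (124 of 691), 35.5% for 14000 to 15999 (133 of 375) and 28% for 16000 to 17062 (28 of 100). An identifier low at day 1 was tested only if high in scouts, so the filter can raise these shares. Tested or not, the classes held 1984, 1991 and 1063 identifiers. Each 2000 numbers below 12000 held 1948 to 1993, of which 59 to 94 were clearly higher. Over all identifiers the last class thus did not exceed those below 12000. Clearly lower identifiers made up 11.8% to 14.8% of those tested in each 2000 numbers below 12000, and 7.67%, 7.20% and 13% in the 3 classes above. Of the 12 largest differences, 11 of those higher in scouts and 3 of those lower had a number of 12000 or more. The cut at 12000 was chosen after the values were seen, and these shares carry no test.

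The same skew stood at the top of each single library. Numbers of 12000 or more made up 69%, 70%, 63%, 70% and 69% of the 100 highest numbered identifiers in scouts 17 to 21. They made up 15%, 17%, 15%, 14% and 14% in day 1 minors 1 to 5. Scouts were at least 63% and day 1 minors at most 17%, with no overlap. Day 1 majors 1, 2 and 3 had 59%, 48% and 27%, and majors 4 and 5 had 13% and 17%. The other day 1 brain had 33% without LinDA and 26% to 31% with it. Between positions 101 and 1000 the share was 33.0% to 36.1% in scouts and 11.4% to 13.7% in day 1 minors. Beyond position 3000 it was 12.2% to 13.8% in scouts and 13.3% to 14.8% in day 1 minors. High numbers were thus over-represented in the most abundant part of scout libraries, and among the 10 day 1 libraries of the other table most in majors 1 and 2. What sets these gene models apart is not given in the sources used here.

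**Figure D4:**
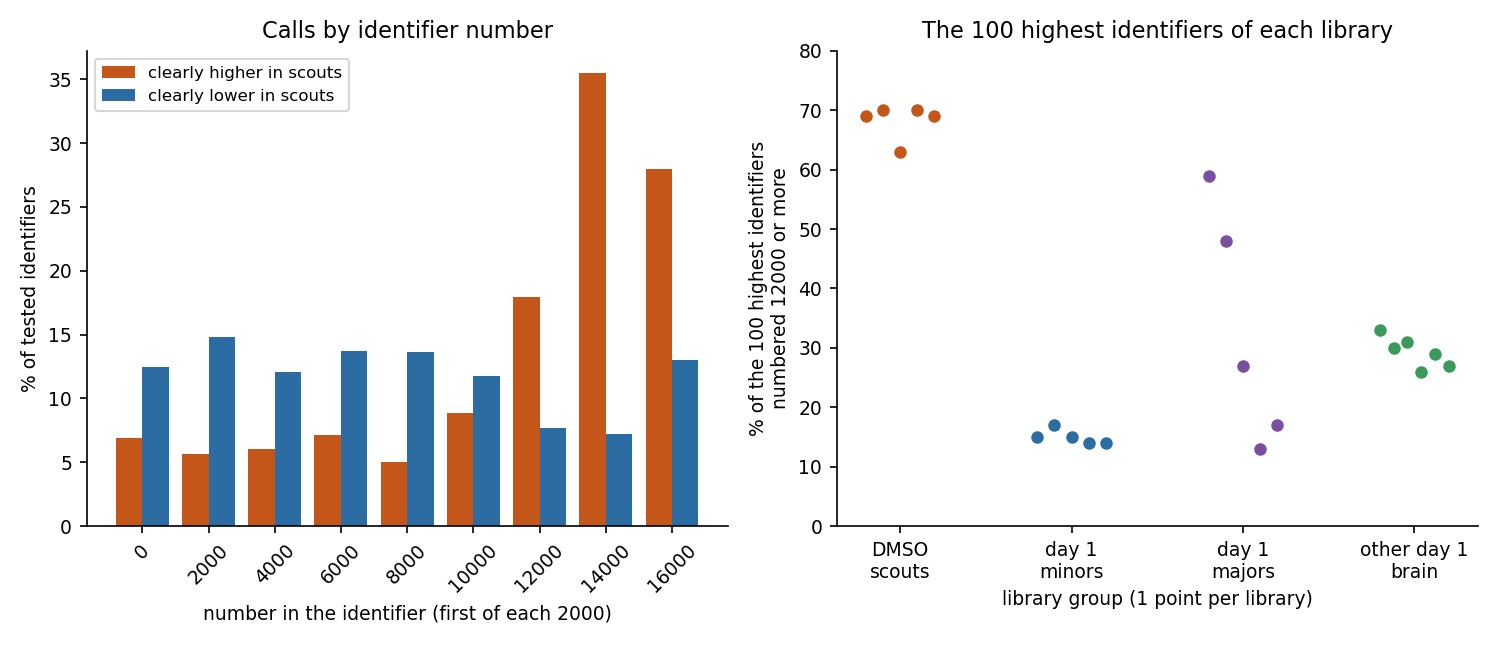
Left, share of tested numbered identifiers that were clearly higher (left bar) or clearly lower (right bar) in scouts, by the number in the identifier. Right, share of the 100 highest numbered identifiers of each library with a number of 12000 or more, which is 63% to 70% in scouts, 14% to 17% in day 1 minors, 13% to 59% in day 1 majors and 26% to 33% in the portions of the other day 1 brain.

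With the 5633 tested identifiers numbered under 12000 ranked among themselves, 1301 were higher and 1730 lower in scouts (limma, adjusted p under 0.05). Calls made up 53.8% of the identifiers tested in this way and 52.6% of the 7870 of the main test. Of the calls, 57.1% and 58.5% were lower in scouts. This alternative was added after the data were seen.

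Among the 1202 identifiers that carry a name in place of a number, the classes moved in different directions. Counts per library are of ranked identifiers, within the same total of 7825, and p-values from exact permutation tests were adjusted over 9 classes, which include the numbered identifiers. The numbered identifiers are what the named ones leave of that total, and their mean difference, scouts minus day 1 minors, was -49.2 (adjusted p = 0.0306, exact permutation test). That call is lost without any one of scouts 17 to 20 or day 1 minors 1 to 3, where the adjusted p is 0.0536 to 0.0612 (exact permutation tests).

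Chemosensory receptors were ranked more often in scouts. Odorant receptors detect smells on the antenna, outside the brain. Of 407, scouts 17 to 21 ranked 46, 51, 28, 43 and 50, and day 1 minors 1 to 5 ranked 1, 1, 0, 0 and 2 (adjusted p = 0.0143, exact permutation test). This rests on the common cap: counted by detection, scouts had 55, 59, 31, 43 and 56 and day 1 minors 44, 62, 43, 49 and 65, a mean difference of -3.80 (adjusted p = 0.714, exact permutation test). The numbers of detected odorant receptors thus overlapped between the groups, and in young brains nearly all of them stood below the first 7825. Gustatory receptors, the taste receptors, had 3, 8, 10, 13 and 5 ranked in scouts and 1, 0, 0, 0 and 1 in day 1 minors (adjusted p = 0.0143, exact permutation test), and detection did not pass (adjusted p = 0.531, exact permutation test). Ionotropic receptors had 9, 5, 6, 5 and 8 ranked in scouts and 3 in every day 1 minor (adjusted p = 0.0143, exact permutation test), and detection again did not pass (adjusted p = 0.921, exact permutation test).

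2 receptors show the pattern by library. Cflo_OR61 stood at 1024, 1161, 952, 3384 and 1406 among all identifiers in scouts and was unranked in every day 1 minor (difference 62.8 percentile points). It was ranked at 3024 in day 1 major 2, within the range of the scouts, and unranked in the other majors. Cflo_GR48 stood at 401, 1797, 783, 735 and 1189 in scouts and was unranked in day 1 minors and day 1 majors (difference 66.2 percentile points between scouts and minors). Both were named after their values were seen and passed the filter through scouts alone, so no p is given.

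Among the co-receptors of antennal neurons, IR25a and IR93a ranked lower in scouts, IR8a did not pass, and Orco and IR76b were too sparse to test. Orco, the partner of every odorant receptor, was detected in 2 scouts and no day 1 minor, and ranked in 1 scout at 5076. IR25a, a broad ionotropic co-receptor known from Drosophila, was ranked in scout 21 alone among scouts, at 6421. It stood at 3037, 3166, 3011, 2362 and 3199 in day 1 minors. Its difference was -48.1 ± 6.96 percentile points (SE), and it passed the filter through the day 1 minors, so no p is given. IR93a, a co-receptor for sensing temperature and humidity in Drosophila, had a difference of -25.9 ± 9.65 (SE; limma, adjusted p = 0.0460), and IR8a, a co-receptor for acids there, one of -19.1 ± 8.52 (adjusted p = 0.0849). IR76b was ranked in 1 scout and no day 1 minor. Orco, the defining marker of antennal olfactory neurons, was thus undetected in 8 of the 10 libraries.

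MicroRNA and small nuclear RNA loci were ranked less often in scouts. MicroRNA loci, precursors of short regulatory RNAs, had 0, 0, 1, 1 and 1 ranked in scouts and 5, 4, 8, 7 and 5 in day 1 minors, out of 119. Small nuclear RNA loci, parts of the splicing machinery, had 9, 14, 10, 7 and 7 in scouts and 17, 17, 19, 20 and 21 in day 1 minors, out of 29. Both classes passed with an adjusted p of 0.0143 (exact permutation test), the groups did not overlap, and counts by detection were identical. The identifiers with the prefix antTRG, which the labels do not spell out, had 4, 5, 4, 14 and 5 in scouts and 12, 11, 11, 11 and 11 in day 1 minors (adjusted p = 0.0536, exact permutation test). By detection their mean difference was -12.0 (means of 8 in scouts and 20 in day 1 minors, adjusted p = 0.0179, exact permutation test). With the SB2 scouts alone the ranked difference was -6.87 (adjusted p = 0.0402, exact permutation test). Without scout 20, at 14, their difference was -6.70 (adjusted p = 0.0238, exact permutation test). Transfer RNA loci had 79, 81, 60, 71 and 27 in scouts and 39, 45, 13, 53 and 53 in day 1 minors, and the groups overlapped (adjusted p = 0.111, exact permutation test). With the SB2 scouts alone the difference was 32.7 (adjusted p = 0.0402, exact permutation test). Without scout 21, at 27, the difference was 32.15 (adjusted p = 0.0204, exact permutation test).

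Ribosomal RNA loci were ranked less often in scouts, and the loci at the top were different ones. Scouts ranked 22, 12, 14, 13 and 12 of 38 loci and day 1 minors 24, 20, 23, 23 and 24 (adjusted p = 0.0238, exact permutation test), and the groups overlapped through scout 17. With the SB2 scouts alone the adjusted p was 0.0714 (exact permutation test). Cflo_rRNA15, Cflo_rRNA22, Cflo_rRNA27, Cflo_rRNA16 and Cflo_rRNA14 held positions 3 to 7 among all identifiers in every scout and were undetected in every day 1 minor. Cflo_rRNA33, Cflo_rRNA37, Cflo_rRNA24, Cflo_rRNA35 and Cflo_rRNA12 were undetected in every scout and lay between positions 6 and 21 in every day 1 minor. These are the 10 named identifiers with the largest differences, from -71.5 to 71.6 percentile points, and each was chosen for that difference and unranked in 1 whole group, so no p is given. In day 1 majors 1 and 2 the first 5 loci stood between positions 2 and 13, and the second 5 were ranked there too, between 11 and 117. Ribosomal RNA genes are near-identical copies, and the counting could have assigned the same reads to different loci in different libraries, so the direction of a single locus is uncertain.

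**Figure D5:**
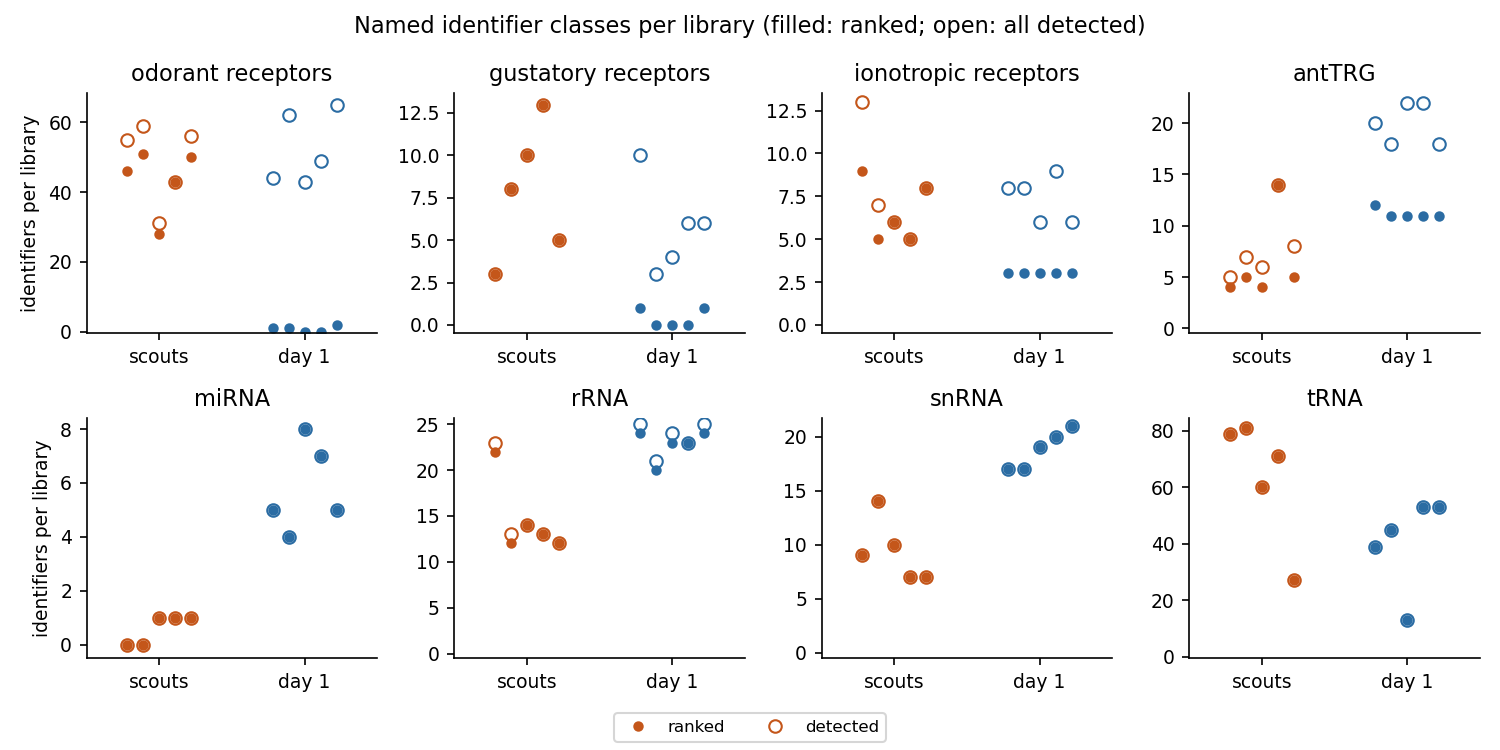
Identifiers per library in 8 named classes, scouts on the left and day 1 minors on the right of each panel (filled points, ranked among the first 7825; open points, all detected). Ranked odorant receptors number 28 to 51 in scouts and 0 to 2 in day 1 minors, while all detected ones number 31 to 59 and 43 to 65.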

How the data were processed

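Values are log2 values as deposited by the authors, in 1 table for scouts, 1 for day 1 workers and 1 for portions of a single brain, and the log base is inferred. The tables were normalized apart. The submitters' processing notes name bcl2fastq 2.0, Bowtie2 and Cufflinks 2.2.1; the sources used here give neither build nor settings.

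Undetected identifiers form a run of tied values in line order, and an identifier is called detected above it. Ranks within each library were capped at 7825, the lowest number detected among the 10 libraries, and expressed as percentiles. Identifiers with a mean percentile of at least 50 were tested with limma 3.58.1 in R 4.3.3 (variance trend, Benjamini-Hochberg, threshold 0.05), scouts minus day 1 minors, all 10 libraries, no covariate. An identifier ranked in 1 group alone passes that filter only if it is high there. Counts per library were compared by two-sided exact permutation, with scipy 1.17.1. The scripts were tested on simulated data. Figures used matplotlib 3.10.9.

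Named genes are the 12 with the largest differences in each direction that also met the checks on overlap, colony SB2 and the second day 1 brain, 3 in each direction that failed the last check, and up to 10 named identifiers. Members and lists were chosen with earlier results of these data known. Of the identifiers, 0 matched the reference table of 14020 genes. Nothing says that brains of 1 group came from separate boxes, so p-values measure the spread between these brains. Chromatin samples were not used.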

Additional observations from a re-analysis of the deposited data

Results flagged for a closer look

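In groups of 5 libraries, single values that stood far from the other 4 are listed, and chance alone gives about 1 in 20 groups; 14 of 59 groups of values were marked. Among scouts, scout 20 ranked 14 antTRG identifiers against 4 to 5 in the others, and scout 17 ranked 22 ribosomal RNA loci against 12 to 14. Scout 21 had Cflo_01875 at position 44 against 9 to 19 in the others, and scout 19 had Cflo_17049 at position 8 against 5. Scout 20 had Cflo_13241 at position 4 against 3, Cflo_rRNA15 at 4 against 3 and Cflo_rRNA22 at 3 against 4, each a step of 1 place.

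Among day 1 minors, minor 1 ranked 12 antTRG identifiers against 11, and minor 2 ranked 20 ribosomal RNA loci against 23 to 24. Minor 2 also had Cflo_02756 at position 87 against 23 to 39 and Cflo_06306 at 403 against 181 to 213. Minor 1 had Cflo_10554 at 513 against 198 to 270. Minor 4 had Cflo_rRNA37 at 13 against 6 to 8 and Cflo_rRNA35 at 19 against 14 to 15. Each of these single identifiers was unranked in the whole other age group, so a ranked library could not fall into that group's range.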

How the results depend on the processing

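No paired analysis was possible because scouts 17 to 21 and day 1 minors 1 to 5 share no replicate number. The 4136 identifiers called in all (1717 higher, 2419 lower in scouts) became 1858 (751 and 1107) at a mean percentile of at least 75, where 3094 were tested. Among identifiers detected in all 10 libraries 1428 were lower. The other settings gave 2767 to 4340 calls. Leaving out 1 library gave 3686 to 4174 calls, 1608 to 1711 higher and 2078 to 2463 lower. SB2 scouts alone gave 4209, of which 3658 were also called with all scouts, and no identifier called in both had the opposite direction. The 40 named identifiers sit near the largest difference the ranks allow and were chosen for it, so that none changed direction or call in any setting says nothing about stability. With detection defined as a deposited value above 1, scouts had 988 more identifiers than day 1 minors, the reverse of the difference of -2581, and deposited values are not comparable between tables.

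Counting all detected identifiers left mean differences of 2 for gustatory, 0.40 for ionotropic and -3.80 for odorant receptors, and of -12.0 for antTRG (exact permutation tests, adjusted p = 0.531, 0.921, 0.714 and 0.0179). With SB2 scouts alone the differences were -6.87 for antTRG, 32.7 for transfer RNA and -6.80 for ribosomal RNA (exact permutation tests, adjusted p = 0.0402, 0.0402 and 0.0714). Leaving out 1 library gave ranges, scouts minus day 1, of -2743 to -2467 for identifiers detected, 6.10 to 8.60 for gustatory, 3 to 4 for ionotropic and 40.95 to 46.7 for odorant receptors, -6.70 to -4.20 for antTRG, -5.65 to -4.65 for microRNA, -58.6 to -42.6 for numbered, -10.05 to -7.55 for ribosomal RNA, -10.55 to -8.80 for small nuclear RNA and 16.1 to 32.15 for transfer RNA. The cause of these changes was not tested beyond the cap itself. Depth is unknown, so absence from a library cannot be told from failure to detect.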

Other observations

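Scouts of the same table that were fed inhibitors entered no test here and are given as values. They also differed from the 78 day DMSO scouts in age and colony. TSA scouts were 68 to 73 days old, from colonies SB1, SB2 and SB4, and were fed 50 µM TSA. Scouts with C646 were 57 to 66 days old, from SB1, SB4 and SB6, and were fed 50 µM TSA with 50 or 100 µM C646. The 10 scouts fed trichostatin A (TSA), an inhibitor of histone deacetylases, had a mean Spearman's rho of 0.63 with the 5 DMSO scouts and of 0.50 with the day 1 minors. Their mean percentile lay nearer to the DMSO scouts than to the day 1 minors for 707 of the 736 identifiers clearly higher in DMSO scouts and for 918 of the 975 clearly lower. In the 6 scouts fed TSA with C646, an inhibitor of histone acetyltransferases, the counts were 695 and 916. All these scouts share a table and amplification with the DMSO scouts. Of their 100 highest numbered identifiers, 64% to 73% in TSA scouts and 68% to 75% with C646 added had a number of 12000 or more. Cflo_14940, at position 2 in every DMSO scout, was at 2 or 3 in all 10 TSA scouts. Of the 12 identifiers lowest in DMSO scouts against day 1 minors, 11 were ranked in at least 1 TSA scout, and Cflo_10987 in none.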
